A study of Mus musculus with 56 samples.

Results

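Visceral adipose tissue (VAT) was compared at the end of the daily fast under inverted feeding. Of the 56 VAT libraries of the series, 12 were used for this comparison, and each library held the RNA of 1 mouse. Daytime-restricted feeding (DRF) gave food in the light phase, so its fast was taken to end at lights on. The 4 DRF libraries of zeitgeber time (ZT) 0 and the 4 of ZT24 were averaged. Nighttime-restricted feeding (NRF), the reference regimen, gave food in the dark phase, so its fast was taken to end at lights off. The 4 NRF libraries of ZT12 were used. Exact feeding hours are not in the labels used here. The libraries were picked by regimen and time labels and by no measured value. All 12 mice were female C57BL/6J, 9 weeks old and group housed. Before the 7 days on DRF or NRF, all had normal chow and water ad libitum for 7 days on a 12-h light and 12-h dark cycle. The comparison matched the feeding state and crossed the light cycle, so regimen and clock time cannot be told apart in it. Values are given as CPM (reads of a gene scaled to the library size that the authors' own values imply), levels were compared within a gene only, and differences are DRF minus NRF on log2(CPM + 1), which understates the change of genes near 1 CPM.

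Most mammalian cells hold a circadian clock. BMAL1 (encoded by Arntl) pairs with CLOCK or NPAS2 and activates genes that carry E-box motifs, among them the Per, Cry and Nr1d genes, whose products then repress the activators. The PAR bZIP factors DBP, TEF and HLF are driven by this loop and act on D-box motifs, where NFIL3 opposes them. Adipose tissue also follows feeding directly, since insulin after a meal favours lipid storage and fasting favours the release of fatty acids.

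The 12 libraries held 31.1 to 38.9 M reads on genes, with a median of 35453002. The labelled tissue was checked first. All 8 adipocyte markers were detected in each of the 12 libraries, none of the 8 passed the test between the groups (1, Lep, was higher without DRF ZT0 replicate 4), and their summed level was 14799 to 33395 CPM under DRF and 22168 to 28084 CPM under NRF. DRF ZT0 replicate 4 stood apart. It had the highest level of each of the 12 uterine epithelium markers, with a sum of 5829 CPM against 32.2 to 102 CPM in the other 11 libraries. It also had the highest level of each of the 6 smooth muscle markers and the lowest adipocyte sum. Counts and named genes were therefore also computed without this library. NRF ZT12 replicate 1 stood apart in metabolic genes. Acly, the enzyme that supplies acetyl-CoA for lipid synthesis, was at 499 CPM in this library against 2008 to 7053 CPM in the other 11. The summed liver marker level of this library was 8271 CPM against 2345 to 4381 CPM, nearly all of it Cyp2e1 (8253 CPM against 2327 to 4367 CPM), while Alb was at 16.6 CPM against 12.9 to 70 CPM in the others. In bulk tissue, fewer cells of a type and less RNA per cell cannot be told apart.

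At the end of the fast, 1572 of 16144 genes tested differed between DRF and NRF (9.74%), of which 754 were higher under DRF (4.67%) and 818 lower (5.07%). The test was limma on all 56 libraries with Benjamini-Hochberg adjustment and an adjusted p under 0.05. The unadjusted p was under 0.05 for 3668 genes. Most differences were small. The median absolute log2 difference of the called genes was 0.47, 154 of them differed by at least 1 on the log2 scale (79 higher and 75 lower), and the median over all genes tested was 0.006. The 95% interval of the difference lay within -0.5 to 0.5 for 11315 genes (70.1%). The levels of the 8 DRF and the 4 NRF libraries did not overlap for 941 genes (5.83%; 2.66% higher and 3.17% lower under DRF). The number of calls moved with single libraries. It was 1878 without DRF ZT0 replicate 4 (11.6%; 5.88% higher and 5.75% lower), 952 without NRF ZT12 replicate 1 and 862 without NRF ZT12 replicate 2. In each of the 12 fits that left out 1 library, 621 genes (289 higher and 332 lower) passed. On the log2 of the deposited value plus 1, 27.6% of the 1461 calls were higher under DRF, against 48.0% of the 1572 calls on log2(CPM + 1). Scaled to the reads on genes, 51.1% of 1533 calls were higher.

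Matched clock times gave more calls than matched feeding state in the same fit. At lights on, DRF against NRF at ZT0 and ZT24, a comparison that shares its DRF libraries with the end-of-fast comparison, 4963 genes passed (30.7%; 14.8% higher and 15.9% lower). At lights off, DRF against NRF at ZT12, which shares its NRF libraries, 4358 passed (27%; 14.7% higher and 12.3% lower). The difference between these counts was not tested, and the groups at lights on hold more mice. Taken alone against NRF ZT12, DRF ZT0 gave 965 calls (5.98%; 3.07% higher and 2.91% lower) and DRF ZT24 gave 1326 (8.21%; 4.03% higher and 4.18% lower). The share of higher calls moved with the scale here too. On the log2 of the deposited value plus 1 it was 26.4% of 1066 calls for DRF ZT0 (51.3% on log2(CPM + 1)). It was 33.5% of 1043 for DRF ZT24 (49.1%), 37.5% of 4701 at lights on (48.3%) and 57.2% of 3700 at lights off (54.4%). Scaled to the reads on genes, the share was 61.8% of 916 calls for DRF ZT0 and 45.4% of 1365 for DRF ZT24. It was 41.2% of 4924 at lights on and 59.8% of 4263 at lights off.

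Among the pathway lists, which were chosen with earlier results of these data known, genes of the clock made up the densest set of differences. Of 23 tested genes in the 3 clock lists, 16 passed the test (69.6%, against 9.74% of all genes), 4 higher and 12 lower under DRF. All 16 calls held in each of the 12 fits without 1 library. In the other 19 pathway lists together, 45 of 322 entries passed (14%), 18 higher and 27 lower. Lists can share genes. The 45 include Per1, also in a clock list, and hold Klf15 under both glucocorticoid receptor targets and fasting and FOXO.

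Among the activators, 3 of 5 were higher under DRF and none lower, with a median difference of 0.97. Arntl (chr7:113207465-113314126, GRCm38) had the largest log2 difference of all genes tested. Its level was 18.9, 14.4, 18 and 14.2 CPM at DRF ZT0, 22.5, 14.7, 17.1 and 16.4 CPM at DRF ZT24, and 0.532, 0.767, 0.698 and 0.758 CPM at NRF ZT12. Each DRF library was above every NRF library, and the NRF libraries were all below 1 CPM. The log2 difference was 3.40 ± 0.19 (SE; adjusted p = 2.14e-18), or 10.6-fold on CPM + 1. Npas2, which can take the place of CLOCK, was at 6, 4.64, 3.96 and 15.1 CPM at DRF ZT0, 7.3, 5.13, 4.36 and 5.28 CPM at DRF ZT24, and 0.203, 0.332, 0.295 and 0.298 CPM at NRF ZT12. The highest of these values was in DRF ZT0 replicate 4. The log2 difference was 2.44 ± 0.22 (SE; adjusted p = 4.78e-11), and 2.25 without this library (adjusted p = 1.69e-11). Clock itself differed less in size, with 58.5 to 81.2 CPM under DRF and 28.5 to 37.5 CPM under NRF (log2 difference 0.97 ± 0.09, SE; adjusted p = 4.78e-11). The nuclear receptor gene Rora, whose product activates Arntl, did not pass. It was at 60.6 ± 7.89 CPM under DRF and 65.6 ± 7.45 CPM under NRF (SD, n = 8 and 4; 95% interval of the log2 difference -0.33 to 0.10).

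Among the repressors, 6 of 10 were lower under DRF and none higher, with a median difference of -1.21. Ciart, which encodes the repressor CHRONO, was at 1.04, 3.69, 1.03 and 1.44 CPM at DRF ZT0, 0.758, 0.629, 0.515 and 1.15 CPM at DRF ZT24, and 11.9, 13.9, 14.2 and 9.6 CPM at NRF ZT12. The NRF libraries were all above the highest DRF library (log2 difference -2.63 ± 0.19, SE; adjusted p = 3.64e-14; 6.19-fold on CPM + 1). Of the period genes, Per2 was at 17.1, 35.2, 14.1 and 16 CPM at DRF ZT0, 12.3, 17.5, 18.3 and 12.2 CPM at DRF ZT24, and 60.8, 70.8, 65 and 66 CPM at NRF ZT12. Its log2 difference was -1.90 ± 0.26 (SE; adjusted p = 1.24e-06), with no overlap of the groups. Per3 and Per1 were lower by smaller amounts, Per3 at 41.9 to 80 CPM under DRF and 130 to 161 CPM under NRF (-1.33, adjusted p = 1.79e-06), and Per1 at 33.4 to 108 and 118 to 145 CPM (-1.12, adjusted p = 0.000573).

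The REV-ERB receptors, which repress Arntl, were lower under DRF as well. Nr1d2 (REV-ERBβ) was at 34, 50.3, 50.7 and 55 CPM at DRF ZT0, 31.3, 48, 42.8 and 44.3 CPM at DRF ZT24, and 146, 160, 160 and 156 CPM at NRF ZT12. All 4 NRF libraries lay above the 8 DRF libraries (log2 difference -1.80 ± 0.17, SE; adjusted p = 7.51e-11; 3.48-fold on CPM + 1). Nr1d1 (REV-ERBα) was at 43.7 to 62.5 CPM under DRF and 93.9 to 166 CPM under NRF (-1.31 ± 0.20, SE; adjusted p = 7.63e-06). The remaining 4 repressors did not pass and their groups overlapped. Cry1, a partner of the period proteins, came close, with 13.9 ± 2.9 CPM under DRF and 19.4 ± 2.5 CPM under NRF (SD, n = 8 and 4; log2 difference -0.46, adjusted p = 0.0506). Cry2 was at 64.1 ± 7.04 and 72.4 ± 2.51 CPM, and the 95% interval of its difference, -0.39 to 0.03, lay within -0.5 to 0.5. Bhlhe41, which encodes DEC2, was at 13.9 ± 9.29 and 18.7 ± 3.53 CPM (interval -1.17 to 0.05). Bhlhe40, which encodes DEC1, spread most, from 32.7 to 294 CPM under DRF and from 44 to 88.7 CPM under NRF (interval -0.64 to 1.39).

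Among the outputs, 6 of 8 were lower under DRF and 1 was higher, with a median difference of -1.18. The PAR bZIP genes were all lower. Dbp (chr7:45705088-45710203, GRCm38) was at 41, 60.6, 63.4 and 42 CPM at DRF ZT0, 19.3, 61.1, 42 and 40.6 CPM at DRF ZT24, and 264, 260, 255 and 243 CPM at NRF ZT12. The NRF libraries lay close together, far above every DRF library (log2 difference -2.52 ± 0.24, SE; adjusted p = 8.12e-11; 5.73-fold on CPM + 1). Hlf was at 8.16 to 15.5 CPM under DRF and 49.8 to 60.3 CPM under NRF (-2.24 ± 0.15, SE; adjusted p = 1.85e-15). Tef was at 124 to 198 CPM under DRF and 374 to 383 CPM under NRF (-1.33 ± 0.16, SE; adjusted p = 1.33e-07). Their antagonist Nfil3 went the other way. It was at 13.3, 24.6, 18.8 and 23.5 CPM at DRF ZT0, 11.7, 10.8, 11.3 and 14.7 CPM at DRF ZT24, and 9.45, 5.65, 7.84 and 5.22 CPM at NRF ZT12. The groups did not overlap (log2 difference 1.06 ± 0.22, SE; adjusted p = 0.00115), and the DRF ZT24 libraries were the nearer to NRF. Against NRF ZT12, Nfil3 passed in DRF ZT0 alone (1.39, adjusted p = 0.000421) but not in DRF ZT24 alone (0.73, adjusted p = 0.0719). The other outputs called were Usp2, a ubiquitin-specific protease (8.51 to 21.6 CPM against 35.2 to 52.6 CPM; -1.77, adjusted p = 4.43e-09), the tetraspanin gene Tspan4 (44.3 to 70 CPM against 115 to 127 CPM; -1.04, adjusted p = 6.25e-07) and Wee1, a kinase that delays mitosis (8.17 to 15.1 CPM against 20.4 to 26.4 CPM; -0.98, adjusted p = 8.82e-05). Nampt, the rate-limiting enzyme of NAD salvage, was at 165 ± 18 CPM under DRF and 185 ± 16.2 CPM under NRF (SD, n = 8 and 4), with an interval of -0.40 to 0.07.

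**Figure D1:**
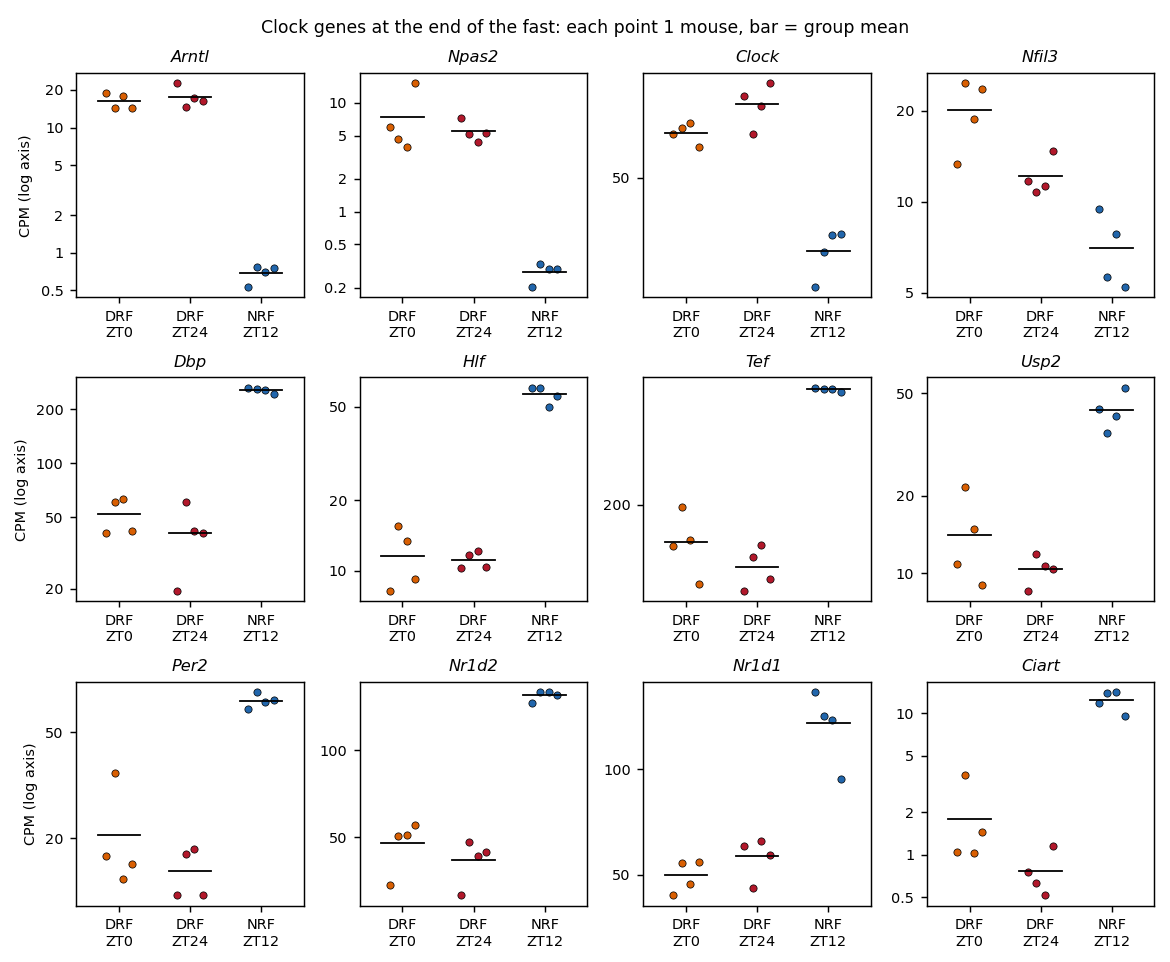
CPM of 12 clock genes on a log axis in the 4 mice each of DRF ZT0, DRF ZT24 and NRF ZT12; points are mice and bars are group means. The NRF points are below all DRF points for Arntl, Npas2, Clock and Nfil3 and above all DRF points for the other 8 genes, for example 243 to 264 CPM against 19.3 to 63.4 CPM for Dbp.

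The promoters of the clock genes were read for the motifs of the loop. RefSeq windows of 300 bases, 250 before and 50 after a start site (GRCm38.p6), were at hand for 19 of the 23 genes, with 25 windows in all. The motifs, searched on both strands, were the E-box CACGTG, the D-box as TTATGTAA or TTACGTAA, and AGGTCA, the core motif of ROR and REV-ERB receptors. No match shared bases with another in these windows. An E-box was found in windows of 6 of the 19 genes (Per1, Cry1, Bhlhe41, Ciart, Tef and Tspan4), a D-box in 1 (Per3) and the AGGTCA motif in 6 (Arntl, Clock, Per1, Nr1d2, Nfil3 and Nampt). Of all 27025 genes with windows, 8.09% hold the E-box, 1.23% the D-box and 18.1% the AGGTCA motif. A match is a description of the letters only. Windows of 6 called genes follow, chosen to show each motif, in lower case from 5′ to 3′ on the strand of the gene, with the motif letters in capitals. Ciart, which had the lowest log2 difference of the clock genes, holds 3 E-boxes (chr3:95882179-95882478, minus strand), and Per1 an E-box and an AGGTCA motif (chr11:69098699-69098998, plus strand).
Ciart: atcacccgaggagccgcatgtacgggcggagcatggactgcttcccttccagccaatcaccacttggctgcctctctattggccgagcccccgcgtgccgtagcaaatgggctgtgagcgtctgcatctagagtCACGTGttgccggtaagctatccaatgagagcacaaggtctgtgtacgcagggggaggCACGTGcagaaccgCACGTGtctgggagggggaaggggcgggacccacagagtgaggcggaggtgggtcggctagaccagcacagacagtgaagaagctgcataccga
Per1: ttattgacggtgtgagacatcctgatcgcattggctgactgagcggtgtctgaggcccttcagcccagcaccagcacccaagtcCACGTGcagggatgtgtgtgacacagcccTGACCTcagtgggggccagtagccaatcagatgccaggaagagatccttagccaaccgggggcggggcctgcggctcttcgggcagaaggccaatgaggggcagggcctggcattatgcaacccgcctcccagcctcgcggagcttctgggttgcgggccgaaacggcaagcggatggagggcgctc
Per3, lower under DRF, holds a pair of D-boxes (chr4:151044616-151044915, minus strand), and was the only clock gene with this motif in its window.
Per3: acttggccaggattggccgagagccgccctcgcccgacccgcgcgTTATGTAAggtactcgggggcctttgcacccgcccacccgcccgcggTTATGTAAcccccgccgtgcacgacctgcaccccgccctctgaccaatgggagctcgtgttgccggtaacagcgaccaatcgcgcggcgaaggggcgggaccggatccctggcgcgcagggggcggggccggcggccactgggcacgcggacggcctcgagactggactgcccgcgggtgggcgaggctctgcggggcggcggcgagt
The AGGTCA motif occurs in genes that differed in both directions, in Arntl (chr7:113207261-113207560, plus strand) and Nfil3 (chr13:52980990-52981289, minus strand), both higher under DRF, and in Nr1d2 (chr14:18239057-18239356, minus strand), lower under DRF.
Arntl: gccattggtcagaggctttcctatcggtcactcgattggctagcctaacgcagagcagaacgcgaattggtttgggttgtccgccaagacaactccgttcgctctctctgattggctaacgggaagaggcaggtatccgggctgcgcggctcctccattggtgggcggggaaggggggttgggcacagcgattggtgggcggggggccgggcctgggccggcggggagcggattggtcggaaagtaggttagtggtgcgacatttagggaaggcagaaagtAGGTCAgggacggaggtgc
Nfil3: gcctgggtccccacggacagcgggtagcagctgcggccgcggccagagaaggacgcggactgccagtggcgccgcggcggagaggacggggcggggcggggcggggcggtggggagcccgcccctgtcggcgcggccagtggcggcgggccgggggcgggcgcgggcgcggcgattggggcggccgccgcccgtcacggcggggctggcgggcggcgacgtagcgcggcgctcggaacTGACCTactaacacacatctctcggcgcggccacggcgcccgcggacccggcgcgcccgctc
Nr1d2: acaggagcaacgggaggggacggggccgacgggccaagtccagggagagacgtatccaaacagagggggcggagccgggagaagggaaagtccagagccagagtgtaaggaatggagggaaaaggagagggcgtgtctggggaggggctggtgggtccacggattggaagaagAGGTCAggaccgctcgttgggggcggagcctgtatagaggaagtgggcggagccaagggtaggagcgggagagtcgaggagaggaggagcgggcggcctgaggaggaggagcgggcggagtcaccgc
The windows of Dbp, Npas2, Nr1d1, Hlf and Usp2, which were also called, hold none of these letters.

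The distance between the regimens at this feeding state was set beside the daily range of each gene. Under NRF, ZT12 was the time of the lowest mean of Arntl (0.689 ± 0.109 CPM, SD, n = 4), and the highest was at ZT24 (40.4 ± 0.388 CPM). Under DRF, Arntl ran from 11.2 ± 3.29 CPM at ZT16 to 31.5 ± 3.02 CPM at ZT4, so the end of the fast lay inside a narrower range. For Dbp, NRF ZT12 was the highest of the day (256 ± 9.02 CPM, from 5.26 ± 2.34 CPM at ZT24), while DRF ran from 20.6 ± 6.96 CPM at ZT16 to 57.7 ± 6.82 CPM at ZT8. Nr1d2 was likewise highest at NRF ZT12 (155 ± 6.76 CPM, from 5.91 ± 1.59 CPM at ZT24), and ran from 24.5 ± 5.01 CPM at ZT4 to 64.1 ± 7.3 CPM at ZT8 under DRF. Times of the highest and lowest mean were read from 7 time points 4 h apart and carry no test.

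**Figure D2:**
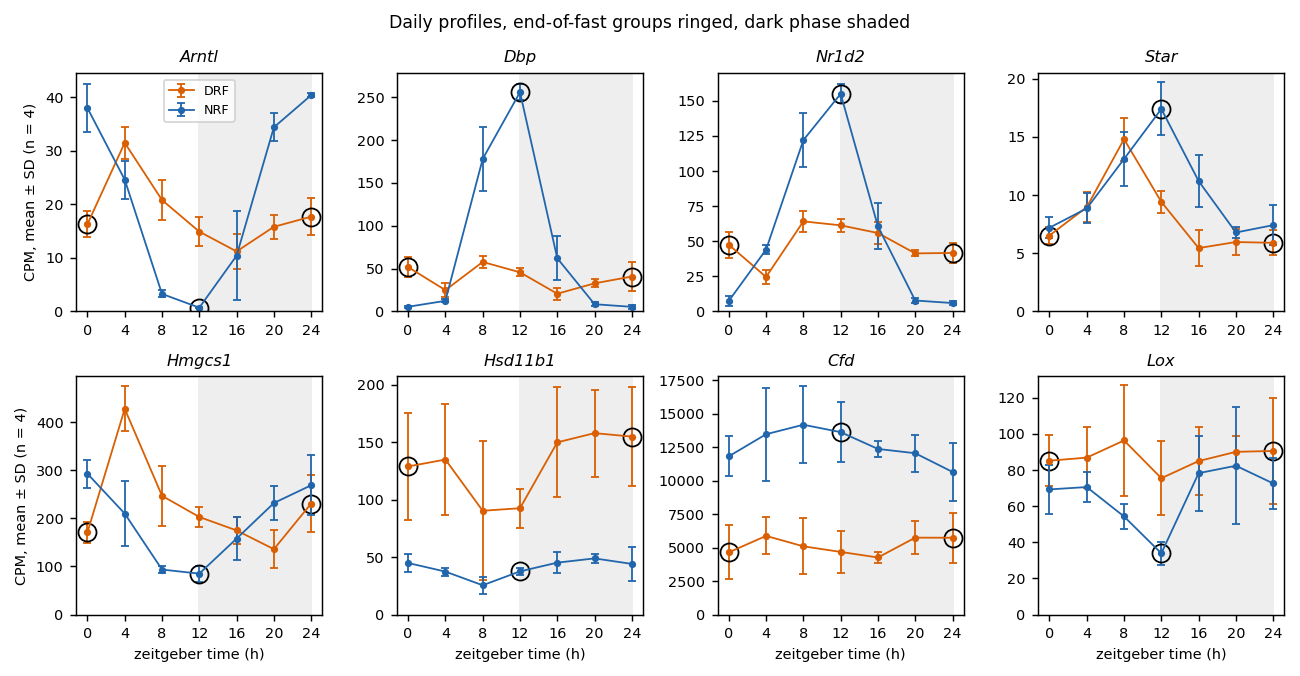
Mean CPM and SD (n = 4 mice) of 8 genes at 7 time points under DRF and NRF, with the end-of-fast groups ringed and the dark phase shaded. NRF ZT12 is the lowest mean of Arntl (0.689 CPM) and the highest of Dbp (256 CPM) and Nr1d2 (155 CPM), while the DRF means of Hsd11b1 (90.4 to 158 CPM) lie above its NRF means (25.5 to 48.9 CPM) and those of Cfd (4263 to 5879 CPM) below (10657 to 14185 CPM).

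The change from the end of feeding to the end of the fast was then tested within each regimen, and the difference of these swings as an interaction. These contrasts share the end-of-fast libraries with the comparison above. Under NRF (ZT12 minus ZT0 and ZT24), 4501 genes passed (27.9%; 13.5% rose and 14.4% fell). Under DRF (ZT0 and ZT24 minus ZT12) 3661 passed (22.7%; 9.97% rose and 12.7% fell). The swings differed for 863 (5.35%; 2.23% higher and 3.12% lower under DRF). For the clock lists the swings differed in 16 of 23 genes: 3 activators, 6 repressors and 7 outputs. Across the 12 fits without 1 library, 3 activators were called higher in every fit and 0 to 1 lower, 6 to 7 repressors and 6 outputs were called lower, and 0 to 1 output was called higher. Arntl fell by 4.57 on the log2 scale over the NRF fast (adjusted p = 4.72e-24), against a DRF swing of 0.18 (adjusted p = 0.536), and the swings differed by 4.75 (adjusted p = 1.81e-18). Dbp rose by 5.40 over the NRF fast (adjusted p = 4.88e-23), against -0.05 under DRF (adjusted p = 0.9; difference -5.45, adjusted p = 4.86e-17). Per2 and Hlf passed in opposite directions. Per2 rose by 2.40 under NRF (adjusted p = 9.09e-10) and fell by 1.25 under DRF (adjusted p = 0.000401), and Hlf rose by 2.27 (adjusted p = 1.81e-16) and fell by 1.08 (adjusted p = 6.9e-07). Clock fell over both fasts, by 1.52 under NRF and by 0.46 under DRF (adjusted p of the difference 3.88e-08), and so did Nfil3, by 2.30 and by 1.13 (adjusted p of the difference 0.0163). The calls for the interaction on the log2 of the deposited value plus 1 were higher in 24.2% of 1079 genes, and on log2(CPM + 1) in 41.7% of 863. For the DRF swing the share was 27.0% of 3974 genes, against 43.9% of 3661. For the NRF swing it was 54.1% of 3848, against 48.4% of 4501. Scaled to the reads on genes, the share was 44.3% of 796 for the interaction. It was 37.3% of 3497 for the DRF swing and 41.9% of 4470 for the NRF swing.

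Genes of cholesterol synthesis fell over the fast in both regimens. They fell in 16 of 20 cases under DRF and in 17 of 20 under NRF, where 1 rose, with median swings of -1.06 and -1.02, where 12.7% and 14.4% of all genes tested fell. Without 1 library these counts were 14 to 16 and 15 to 18. The swings differed for 1 of 20 genes, Hmgcs1, and for 5.35% of all genes. At the end of the fast, 2 of 20 were higher under DRF and none lower, with a median difference of 0.35, against 4.67% higher and 5.07% lower of all genes. NRF ZT12 replicate 1 had the lowest level of 13 of the 20 genes, and DRF ZT24 replicate 4 the highest of 11. The median was 0.24 without NRF ZT12 replicate 1, 0.31 without NRF ZT12 replicate 2 and 0.38 without DRF ZT0 replicate 4. Over the 12 fits without 1 library, 2 to 3 were higher and 0 to 1 lower. At matched clock time the same list gave 2 higher and 13 lower at lights on and 19 higher and 1 lower at lights off, with medians of -0.53 and 1.49. Of all genes, 14.8% were higher and 15.9% lower at lights on, and 14.7% and 12.3% at lights off. These comparisons share the end-of-fast libraries.

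Hmgcs1, HMG-CoA synthase, was at 176, 199, 162 and 146 CPM at DRF ZT0, 262, 141, 253 and 267 CPM at DRF ZT24, and 81.1, 63.7, 99.1 and 96.7 CPM at NRF ZT12. Every DRF library was above the NRF libraries (log2 difference 1.21 ± 0.18, SE; adjusted p = 9.14e-06). It fell by 1.71 over the NRF fast (adjusted p = 7.93e-10), against -0.05 over the DRF fast (adjusted p = 0.878; difference of the swings 1.66, adjusted p = 1.51e-05).

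**Figure D3:**
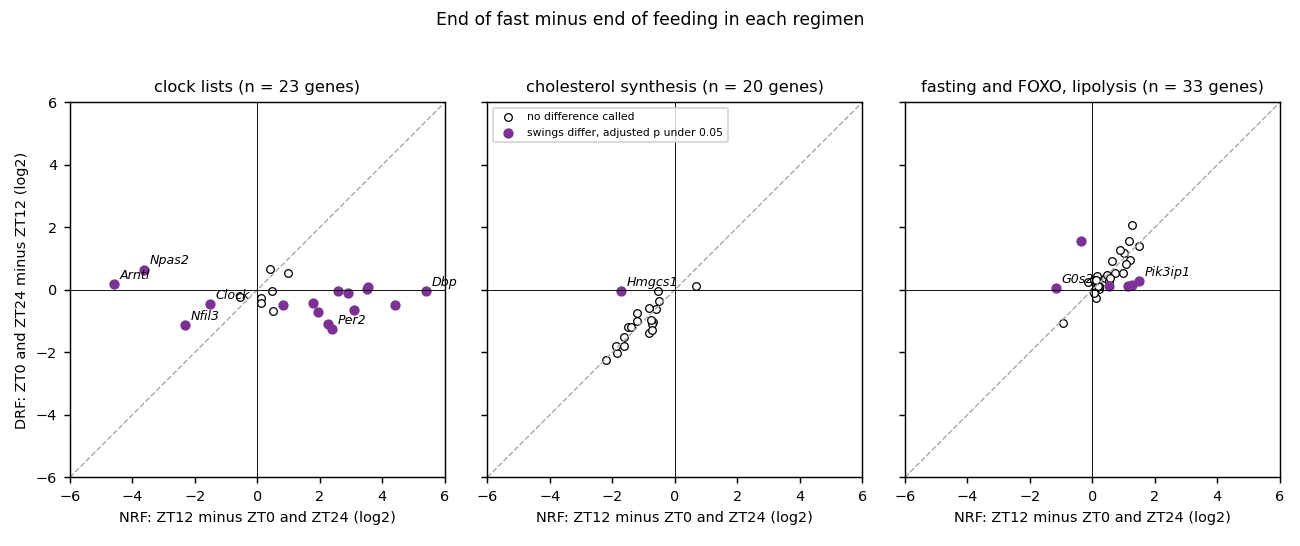
Log2 change from the end of feeding to the end of the fast under NRF (x axis) and DRF (y axis) for 23 clock genes, 20 cholesterol synthesis genes and 33 FOXO-responsive and lipolysis genes; filled points have swings that differ at an adjusted p under 0.05, and the dashed line marks equal swings. Clock genes spread mainly along the horizontal axis, with Dbp at 5.40 under NRF and -0.05 under DRF, and most cholesterol genes lie near the dashed line, with medians of -1.02 and -1.06.

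Targets of the glucocorticoid receptor, which is activated by a hormone with a daily rhythm, gave 2 higher and 5 lower of 18, with a median difference of -0.33, beside 4.67% higher and 5.07% lower of all genes. Of these 7 calls, 4 held in each fit without 1 library, those of Hsd11b1, Cdkn1a, Klf9 and Per1. The swing over the fast was higher under DRF for 1 of the 18 and lower for 7, beside 2.23% and 3.12% of all genes. Over the 12 fits without 1 library, 1 to 2 of these swings were higher and 7 lower. Hsd11b1, which regenerates active glucocorticoid inside cells, was at 190, 133, 117 and 77.9 CPM at DRF ZT0, 174, 106, 205 and 137 CPM at DRF ZT24, and 35.2, 42.4, 35.7 and 37.2 CPM at NRF ZT12. All DRF libraries were higher and more spread than the NRF libraries (log2 difference 1.83 ± 0.24, SE; adjusted p = 4.38e-07). It was also higher under DRF at lights on (1.63, adjusted p = 1.45e-08) and at lights off (1.26, adjusted p = 0.000564). Cdkn1a, the cell cycle inhibitor p21, was at 26.8 to 53.2 CPM under DRF and 9.13 to 13.7 CPM under NRF (1.71, adjusted p = 9.76e-05), and the log2 difference was -0.10 at lights on (adjusted p = 0.79) and 3.05 at lights off (adjusted p = 1e-08). Klf9, a transcription factor, was at 80 to 124 CPM under DRF and 153 to 195 CPM under NRF (-0.79, adjusted p = 1.87e-05). It rose by 1.29 over the NRF fast (adjusted p = 6.53e-11), against 0.05 over the DRF fast (adjusted p = 0.835; difference of the swings -1.25, adjusted p = 2.78e-06). The calls of Tsc22d3 (-0.75, adjusted p = 0.0292) and Pik3r1 (-0.70, adjusted p = 0.014) were less firm. Tsc22d3, which encodes the mediator GILZ, lost its call in 5 of the 12 fits (highest adjusted p = 0.119), without DRF ZT24 replicate 1 or 4 or NRF ZT12 replicate 2, 3 or 4. Pik3r1, a regulatory subunit of PI3-kinase, lost its call without NRF ZT12 replicate 2 (adjusted p = 0.0611).

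Lists of fuel handling gave 1 to 3 calls each at the end of the fast, where 9.74% of all genes passed (4.67% higher and 5.07% lower). Of the genes responsive to fasting and FOXO factors, 3 of 19 were lower under DRF and none higher (median -0.25). In this list 8 of 19 rose over the DRF fast and 9 over the NRF fast, where 9.97% and 13.5% of all genes rose. Of the 8 adipocyte markers, 4 rose and 1 fell over each fast. Without DRF ZT0 replicate 4, 6 rose and 0 fell over the DRF fast, while 4 rose and 1 fell over the NRF fast. The part of cell composition in these swings was not tested. In the fasting and FOXO list Pik3ip1, an inhibitor of PI3-kinase, held in each fit without 1 library. It was at 12.4, 11, 11.7 and 34.7 CPM at DRF ZT0, 13.5, 12.6, 16.3 and 8.36 CPM at DRF ZT24, and 48.1, 32.9, 22.8 and 26.6 CPM at NRF ZT12. The DRF value that reached into the NRF range was DRF ZT0 replicate 4, and the log2 difference was -1.13 with it (adjusted p = 0.00118) and -1.31 without it (adjusted p = 3.08e-05). Without this library 5 genes of the list were lower, Foxo3 and Fbxo32 beside the 3 called (median -0.23). Klf15 (-0.62, adjusted p = 0.0213) and the insulin receptor gene Insr (-0.26, adjusted p = 0.0297) lost the call without NRF ZT12 replicate 1, with adjusted p of 0.135 and 0.0993. Klf15 also lost it without DRF ZT24 replicate 1, and Insr without DRF ZT24 replicate 3 and NRF ZT12 replicates 2 and 3.

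Lipolysis genes passed in 1 of 14 cases (median -0.13). This was G0s2, an inhibitor of the lipase ATGL, at 221 to 436 CPM under DRF and 125 to 231 CPM under NRF (0.77, adjusted p = 0.0128), and its call was lost without NRF ZT12 replicate 1 or 2 (adjusted p of up to 0.114). In de novo lipogenesis 1 was higher and 2 lower of 16 (median 0.06), in triglyceride synthesis 1 was lower of 14 (median -0.18), in fatty acid uptake 2 were lower of 14 (median 0.05), in fatty acid oxidation 1 was higher and 1 lower of 19 (median 0.04), and in glucose and glycogen 1 was lower of 18 (median 0.05). Of these 9 calls, that of Acsl5, an acyl-CoA synthetase, held in each fit without 1 library (37.8 to 44.3 CPM under DRF and 50.9 to 58 CPM under NRF; -0.35, adjusted p = 0.0015). The others were Pnpla3 (0.96), Aacs (-0.75), Elovl5 (-0.50), Gpat4 (-0.43), Slc27a1 (-0.58), Ehhadh (-0.51), Acadm (0.44) and Gys1 (-0.43), with main adjusted p of 0.0063 to 0.0446 and highest adjusted p without 1 library of 0.0618 to 0.232. Leaving out NRF ZT12 replicate 1 ended 7 of these 8 calls (not Gys1), NRF ZT12 replicate 2 ended 7 (not Gpat4), DRF ZT24 replicate 3 ended 6 (not Gpat4 or Pnpla3), and DRF ZT0 replicate 4 ended those of Ehhadh and Gys1. Without NRF ZT12 replicate 1, no gene of lipolysis, lipogenesis, triglyceride synthesis or fatty acid oxidation passed. This library had the lowest level of 13 of 20 cholesterol synthesis genes and of 10 of 16 lipogenesis genes. The median of lipogenesis was -0.26 without NRF ZT12 replicate 1, 0.15 without NRF ZT12 replicate 2 and 0.14 without DRF ZT0 replicate 4, so its sign rested on the first of these libraries, as did that of glucose and glycogen (-0.03). The median of triglyceride synthesis was -0.32 without NRF ZT12 replicate 1. DRF ZT0 replicate 4 had the lowest level of 11 of 14 lipolysis, 9 of 14 triglyceride synthesis, 8 of 14 fatty acid uptake and 14 of 20 fatty acid oxidation genes. Without it the medians of these lists were -0.05, -0.11, 0.12 and 0.07, 1 lipolysis gene was higher, lipogenesis had 2 higher (Scd2 and Pnpla3) and 2 lower, triglyceride synthesis 1 higher (Mogat2) and 1 lower, uptake 2 lower, and fatty acid oxidation 1 higher. In fatty acid oxidation the 95% interval lay within -0.5 to 0.5 for 12 of 19 genes, and for 70.1% of all genes.

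Of 20 ribosome biogenesis genes, 14 fell over the DRF fast and 12 over the NRF fast (12.7% and 14.4% of all genes). No swing of the list differed between the regimens, where the swings of 5.35% of all genes differed. At the end of the fast, 17 had a 95% interval within -0.5 to 0.5, as did 70.1% of all genes. Of all genes, 4.67% were higher and 5.07% lower. The 2 members called, Ncl (-0.28, adjusted p = 0.0292) and Pes1 (-0.20, adjusted p = 0.022), were lost without NRF ZT12 replicate 1 (adjusted p = 0.107 and 0.189), and in 5 and 3 of the 12 fits in all. Of 18 core autophagy genes, 17 lay within -0.5 to 0.5 and 1 was called, Atg12, part of the conjugation system of autophagosome formation. Atg12 was at 64.3 to 75 CPM under DRF and 52.5 to 55.2 CPM under NRF (0.35, adjusted p = 0.00605) and held in each fit without 1 library.

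Stress and amino acid lists gave 2 to 4 calls each, where 9.74% of all genes passed (4.67% higher and 5.07% lower). In the heat shock and cold-inducible list 2 of 17 were higher (median 0.09), Hspa4l (0.65, adjusted p = 0.00367) and Hsp90aa1 (0.55, adjusted p = 0.0203), both chaperones. In this list 12 of 17 fell over the NRF fast and 8 over the DRF fast, where 14.4% and 12.7% of all genes fell. The swing was higher under DRF for 3 of the 17 and lower for 2, beside 2.23% and 3.12% of all genes. Over the 12 fits without 1 library, 2 to 4 swings were higher and 1 to 3 lower. At the end of the fast without DRF ZT0 replicate 4, the list gave 3 higher, with Ahsa1 added. It also gave 2 lower, Hspa1a and Hspa1b, which are near-identical copies whose split of reads is uncertain. Hsp90aa1 lost its call without DRF ZT0 replicate 3, NRF ZT12 replicate 1 or NRF ZT12 replicate 2, with an adjusted p of up to 0.0773. Among endoplasmic reticulum chaperones and stress genes 1 was higher and 3 lower of 17 (median -0.06). Herpud1, which acts in the degradation of misfolded proteins, held throughout (40.7 to 62.9 CPM under DRF and 72.6 to 92.3 CPM under NRF; -0.67, adjusted p = 6.06e-06). Sdf2l1 (0.57) was lost without NRF ZT12 replicate 2, and Xbp1 (-0.50) and Canx (-0.23) without NRF ZT12 replicate 1. Of 15 amino acid response and serine synthesis genes 2 were higher and 1 lower (median 0.17). Mthfd2, a mitochondrial folate enzyme, held throughout at 7.41 to 10.9 CPM under DRF and 3.76 to 5.25 CPM under NRF (0.78, adjusted p = 0.000123), while Cth (0.53) and Psat1 (-0.43) were lost without NRF ZT12 replicate 1 or 2, and Psat1 also without DRF ZT0 replicate 4 or DRF ZT24 replicate 1.

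Among adipokines, 3 of 12 were lower under DRF and none higher (median 0.07), beside 5.07% lower and 4.67% higher of all genes. DRF ZT0 replicate 4 had the lowest level of 7 of the 12, and without it 3 were lower and 2 higher, Lep and Rbp4 (median 0.14). Cfd, the complement protease adipsin, was at 3333, 4781, 7444 and 3023 CPM at DRF ZT0, 4139, 7997, 4278 and 6536 CPM at DRF ZT24, and 16860, 11706, 13251 and 12713 CPM at NRF ZT12. No DRF library reached the lowest NRF library (log2 difference -1.46 ± 0.25, SE; adjusted p = 7.17e-05). Cfd was lower under DRF at both clock times too, by -1.18 at lights on (adjusted p = 1.96e-05) and -1.58 at lights off (adjusted p = 6.06e-05). Nrg4, a secreted growth factor of fat, was at 80.7 to 182 CPM under DRF and 193 to 246 CPM under NRF (-0.75, adjusted p = 0.00201), but rose over both fasts, by 1.11 under DRF and 1.99 under NRF (adjusted p of the difference 0.0168).

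Collagen and matrix genes were higher under DRF in 4 of 18 cases and lower in none (median 0.29), beside 4.67% higher and 5.07% lower of all genes. Lox, which cross-links collagen, was at 76.6, 99.1, 69.7 and 95.2 CPM at DRF ZT0, 98.3, 68.5, 129 and 66.9 CPM at DRF ZT24, and 43.2, 29.3, 30.4 and 32.7 CPM at NRF ZT12. The groups did not overlap (log2 difference 1.33 ± 0.20, SE; adjusted p = 4.63e-06). Fbn1, the microfibril protein fibrillin, was at 195 to 380 CPM under DRF and 95.6 to 131 CPM under NRF (1.15, adjusted p = 4.56e-05). Over the NRF fast Lox fell by 1.04 (adjusted p = 5.46e-05) and Fbn1 fell by 1.09 (adjusted p = 2.61e-05), against 0.22 and 0.23 over the DRF fast (adjusted p of the difference 0.00225 and 0.00121). Sparc (0.55) and Serpinh1 (0.49) passed with an adjusted p of 0.0296 and 0.0291 and lost the call in 6 and 5 of the 12 fits without 1 library (highest adjusted p = 0.166 and 0.134). None of the 7 adipose progenitor markers passed, and their summed level was 1432 to 2116 CPM under DRF and 1878 to 2415 CPM under NRF. The part of cell composition in the matrix values was not tested.

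In the last lists, to be read against 4.67% higher and 5.07% lower of all genes (5.88% and 5.75% without DRF ZT0 replicate 4), 2 of 20 immediate early genes were lower (median 0.04), Myc (-0.58) and Zfp36 (-0.50), of which Myc lost its call in 3 and Zfp36 in 9 of the 12 fits (highest adjusted p = 0.0957 and 0.227). Against the same NRF libraries, DRF ZT0 alone gave 6 higher and 0 lower of these 20 (1 higher without DRF ZT0 replicate 4), where 3.07% of all genes were higher, and DRF ZT24 alone gave 0 higher and 2 lower (4 lower without DRF ZT0 replicate 4, and 1 to 4 over the 12 fits), where 4.18% of all genes were lower. Of 13 thermogenic genes Cox7a1 was higher (0.66; lost in 8 of the 12 fits; list median -0.16). Of 20 interferon-stimulated genes 1 was lower and none higher (list median -0.08). DRF ZT0 replicate 4 had the highest level of 17 of them, and without it 3 were lower (median -0.28).

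**Figure D4:**
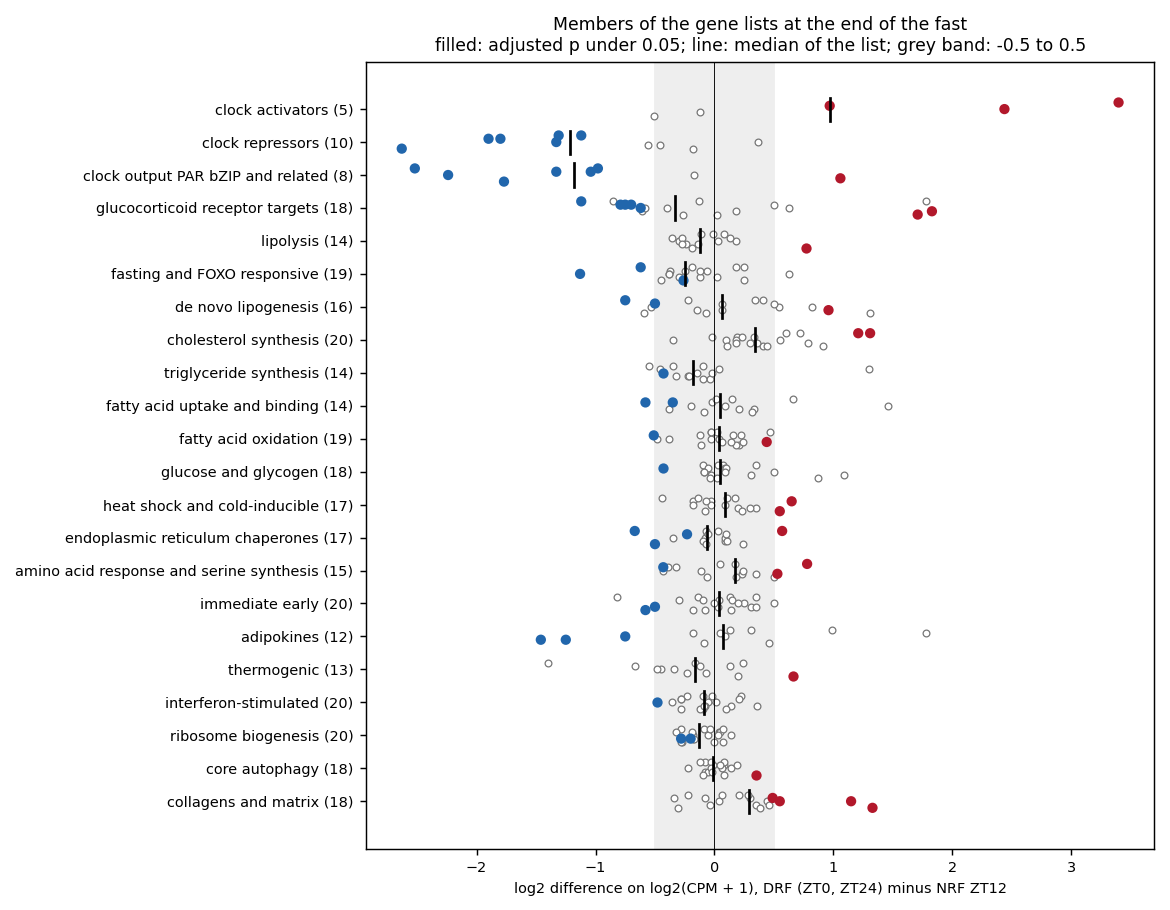
Log2 difference of DRF (ZT0 and ZT24) minus NRF ZT12 for each tested member of the 22 pathway lists, with the number tested in brackets; filled points passed an adjusted p under 0.05, lines are list medians and the band spans -0.5 to 0.5. The clock lists spread from -2.63 to 3.40, while 17 of 18 autophagy genes have an interval within the band.

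Outside the lists, the largest rises named by rule were Podnl1, Ncan, Hephl1, Adamts4, Wdr95, Arhgef37, Hist1h1e and Serpina3m, with log2 differences of 1.81 to 2.09. The naming rule required that the groups did not overlap, for these genes and for the falls named by it. Podnl1, a small leucine-rich repeat proteoglycan gene, was at 7.57, 8.86, 11.9 and 7.1 CPM at DRF ZT0, 11.3, 9.62, 5.01 and 10 CPM at DRF ZT24, and 0.582, 1.69, 1.34 and 1.65 CPM at NRF ZT12 (adjusted p = 1.94e-05). Adamts4, an aggrecanase, was at 5.31 to 14.5 CPM under DRF and 1.43 to 2.54 CPM under NRF (adjusted p = 4.41e-08). Its swings went in opposite directions, in that it rose by 1.06 over the DRF fast (adjusted p = 0.000641) and fell by 1.71 over the NRF fast (adjusted p = 1.3e-07; difference of the swings 2.77, adjusted p = 3.18e-08). Ncan, which encodes the proteoglycan neurocan, was at 4.7 to 18.2 CPM and 0.507 to 2.84 CPM. Hephl1, of the ferroxidase family, was at 11.9 to 29.8 CPM and 2.18 to 9.09 CPM, and lost its call without NRF ZT12 replicate 1 (adjusted p = 0.0522). Wdr95 was at 4.38 to 9.76 and 0.511 to 1.53 CPM, Arhgef37 at 8.14 to 15.3 and 1.94 to 2.52 CPM, the linker histone gene Hist1h1e at 6.36 to 18.4 and 1.56 to 3.29 CPM, and Serpina3m at 4.21 to 16.5 and 1.32 to 1.87 CPM.

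Among genes that met the naming rule, the largest falls outside the clock were Pcsk4, Serpina3b, Mycl, Itih4, Irf4 and Gbp11. Pcsk4, a proprotein convertase, was at 15.8, 15.1, 16.1 and 7.34 CPM at DRF ZT0, 12, 11.3, 8.86 and 8.56 CPM at DRF ZT24, and 63.8, 66.2, 57.6 and 47.2 CPM at NRF ZT12. The NRF libraries lay above the DRF libraries, as the rule required (log2 difference -2.25 ± 0.18, SE; adjusted p = 1.01e-12). It rose by 2.31 over the NRF fast (adjusted p = 8.11e-14), against 0.23 over the DRF fast (adjusted p = 0.392). Irf4, a transcription factor that in fat responds to fasting, was at 7.05 to 16.6 CPM under DRF and 34.2 to 63.4 CPM under NRF (-1.84, adjusted p = 3.08e-06). Its swing was 1.52 under NRF (adjusted p = 1.73e-05) and -0.03 under DRF (adjusted p = 0.955; difference -1.54, adjusted p = 0.00618). Itih4, an inter-alpha-trypsin inhibitor chain, was at 3.18 to 6.48 and 19.4 to 23.4 CPM, and was lower under DRF at lights on (-1.20, adjusted p = 6.59e-06) and lights off (-1.49, adjusted p = 7.05e-05) as well. Mycl was at 3.15 to 7.42 and 10 to 45 CPM, and lost its call without NRF ZT12 replicate 1 (adjusted p = 0.0561). Serpina3b, at 1.7 to 2.94 and 9.56 to 21.4 CPM, Serpina3m and the guanylate-binding protein gene Gbp11, at 1.74 to 3.15 and 3.3 to 19.8 CPM, belong to families of near-identical copies that share reads, so their values are uncertain.

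Markers of other cell types gave 5 calls among 80 tested in 13 lists (6.25%, against 9.74% of all genes). In the ovary list Star, which carries cholesterol into mitochondria for steroid synthesis, was at 4.85 to 7.33 CPM under DRF and 15.1 to 20.5 CPM under NRF (-1.36, adjusted p = 1.17e-10), with no overlap. Star was highest at ZT12 under NRF (17.4 ± 2.28 CPM, SD, n = 4) and at ZT8 under DRF (14.8 ± 1.84 CPM). Inhba, an activin subunit, was near 1 CPM (0.432 to 1.15 CPM against 1.09 to 1.97 CPM; -0.51, adjusted p = 0.0128) and lost its call without NRF ZT12 replicate 2 or 4. The summed ovary list was 6.54 to 13.3 CPM under DRF and 18.7 to 25 CPM under NRF, and its part in other results was not tested. The remaining calls were the neutrophil gene S100a8 (0.91, adjusted p = 6.08e-05), the pancreatic elastase gene Cela1 (0.77, adjusted p = 0.0314) and the endothelial gene Emcn (-0.35, adjusted p = 0.0324), of which the last pair lost the call in 4 and 6 of the 12 fits without 1 library. S100a8 was at a low level, with means of 1.86 CPM at DRF ZT24 and 0.344 CPM at NRF ZT12. It was the only call of 4 neutrophil markers tested, whose log2 differences ran from -0.35 to 0.91. Of the 8 listed acinar markers, 1, Cela1, was tested. Without DRF ZT0 replicate 4 the endothelial list had none lower and 1 higher, Pecam1. No tested marker of uterine epithelium, smooth muscle, skeletal muscle, liver, lymphocytes, red cells, macrophages, mesothelium or adipose progenitors passed, with 4 of the 8 listed liver markers tested.

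The DRF end of fast was sampled on consecutive lights-on times, ZT0 and ZT24, and these groups were compared directly. In limma 18 of 16144 genes differed (0.111%), all lower at ZT24, and the unadjusted p was under 0.05 for 1877. None of the 23 clock genes passed, with Arntl at 0.10 and Dbp at -0.42. Among the 18 were Nr4a1, Ier3, Btg2, Ier2 and Fosl2, 5 of the 20 immediate early genes, which respond within minutes to stimulation. This count was 1 to 9 over the 12 fits without 1 library, and 1 without DRF ZT0 replicate 4. Nr4a1 was at 10.4, 21.7, 58.7 and 42.9 CPM at DRF ZT0, 4.97, 4.75, 2.71 and 3.87 CPM at DRF ZT24, and 5.22, 10.6, 26.6 and 8.41 CPM at NRF ZT12. The ZT24 libraries were all below the ZT0 libraries (log2 difference -2.52 ± 0.41, SE; adjusted p = 0.000834). Egr3 was at 2.16, 6.8, 22.1 and 14.2 CPM at DRF ZT0 and 2.11, 1.54, 1.11 and 0.949 CPM at DRF ZT24 (-2.01, adjusted p = 0.000659), and Ier3 at 5.67, 44.3, 28.8 and 205 CPM and 6.01, 7.61, 6.82 and 9.41 CPM (-2.14, adjusted p = 0.0198). For Ier3 the highest value was in DRF ZT0 replicate 4 and the lowest ZT0 library lay below all of ZT24.

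Without DRF ZT0 replicate 4, 4 of these genes passed: Nr4a1 (-2.32, adjusted p = 0.0172), Egr3 (-1.80, adjusted p = 0.0172), Apold1 (-1.70, adjusted p = 0.0172) and Tob2 (-0.82, adjusted p = 0.0219). Ier3 was at -1.31 (adjusted p = 0.296) without it. The count was 129 without DRF ZT0 replicate 1 (6.98% higher at ZT24) and 73 without DRF ZT0 replicate 3 (20.5% higher). It was 0 in a limma fit of the 12 libraries alone. Without DRF ZT0 replicate 2, DRF ZT24 replicate 1 or DRF ZT24 replicate 3 it was 11, 8 and 7 (18.2%, 12.5% and 28.6% higher). Tob2, an antiproliferative factor, had 48, 75.1, 65.8 and 74.6 CPM at DRF ZT0, 32.3, 40.5, 29.9 and 37 CPM at DRF ZT24, and 94.2, 90.6, 94.2 and 95.3 CPM at NRF ZT12, with no overlap between any of the 3 groups.

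**Figure D5:**
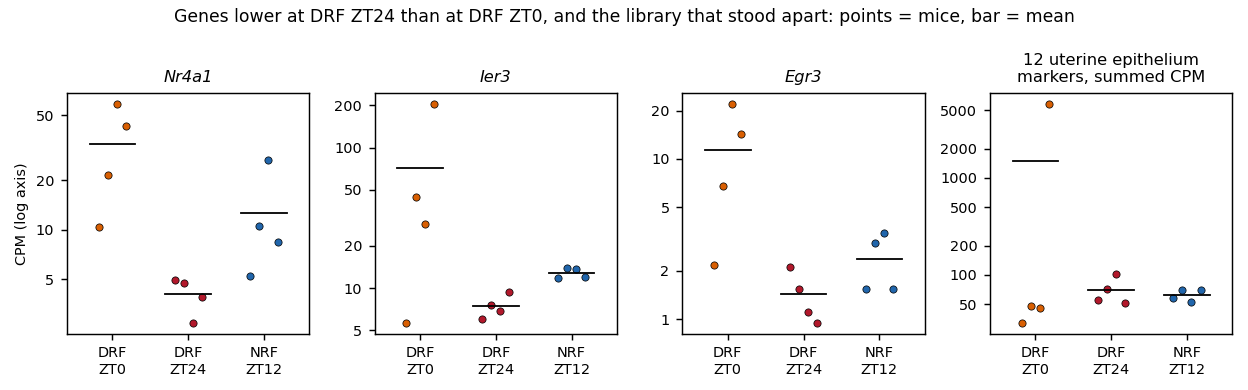
CPM on a log axis of Nr4a1, Ier3 and Egr3 and the summed CPM of 12 uterine epithelium markers in the 4 mice each of DRF ZT0, DRF ZT24 and NRF ZT12; points are mice and bars are means. Nr4a1 lies at 10.4 to 58.7 CPM at DRF ZT0 and 2.71 to 4.97 CPM at DRF ZT24, and the marker sum is 5829 CPM in 1 DRF ZT0 library against 32.2 to 102 CPM in the other 11.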

How the data were processed

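VAT was flash-frozen, RNA was extracted with Trizol and poly-A libraries were made, 1 per mouse. The submitters' processing notes name HISAT2 2.0.5, featureCounts 1.5.0-p3 and mm10, and other settings are not given in the sources used here. The deposited table is described as TPM, but each value is a score that the authors obtained as log2(CPM + 1) divided by exon length and scaled per library. From it whole read counts were recovered. A gene that could be checked was kept only if its values up to 10000 reads lay within 0.02 reads of a whole number. The 1262086 values checked in kept genes thus all met this by selection, and their share of 100% is no separate evidence. The informative figure is that 25047 genes met it with their annotated exon length. For 882 genes the length was itself found from the values, so that wholeness was built in there. CPM use the library size that the authors' values imply. Of 25939 genes, 9 were too abundant for this check, Cfd among them, and Scd1 could not be resolved and was left out.

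Differences were tested on log2(CPM + 1), with a pseudocount of 1, by limma 3.58.1 (trended variance) in R 4.3.3. All 56 libraries were fitted with 14 group means (42 residual degrees of freedom), since they share 1 estimate of the spread between mice. Genes with a mean log2(CPM + 1) of at least 0.5 over the 12 libraries were tested, and p-values were adjusted by Benjamini-Hochberg over all of them. Errors are SE of a difference or SD over mice. The 12 libraries held 31144102 to 38865750 reads. Gene coordinates are GRCm38 and promoter windows are from RefSeq. Figures were drawn with matplotlib 3.10.9. The fit was also run on simulated data, but the outcome of that run is not reported here.

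The members and gene lists were chosen with earlier results of these data known. Named genes were the 10 highest and 10 lowest differences that passed the test in both DRF groups alone and without DRF ZT0 replicate 4, had a mean log2(CPM + 1) of at least 2, a gene symbol and no overlap between the groups; up to 4 called members of each list with the largest differences; every clock gene; and the 3 largest changes between the DRF groups. Alternatives were other scalings, pseudocounts, filters, weights and fits, a replicate block and left-out libraries. A few named genes are not reported here; they stay in the counts of their lists.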

Additional observations from a re-analysis of the deposited data

Results flagged for a closer look

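In 10 of 246 groups of 4 mice tested among the named genes, 1 mouse lay apart from the others of its group by Dixon's criterion. The criterion is relative to the range of the group, so the distance can be small. For Pes1 the DRF ZT0 group was at 43.3 ± 0.638 CPM (SD, n = 4). Chance marks about 1 group in 20. Of the 10, 3 were in DRF ZT0 replicate 4, the library with uterine epithelium genes: Pcsk4 at 7.34 CPM, Pik3ip1 at 34.7 CPM and Acadm at 365 CPM. NRF ZT12 replicate 1 held Klf15 at 137 CPM and Gys1 at 175 CPM. The others were Per3 at 41.9 CPM in DRF ZT24 replicate 4, Hmgcs1 at 141 CPM in DRF ZT24 replicate 2, Mthfd2 at 10.9 CPM in DRF ZT0 replicate 1, Ncl at 189 CPM in DRF ZT24 replicate 1 and Pes1 at 42.4 CPM in DRF ZT0 replicate 2.

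DRF ZT24 and DRF ZT0, a day apart at the same feeding state, differed for Nr4a1 (-2.52), Ier3 (-2.14) and Egr3 (-2.01) on the log2 scale by limma.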

How the results depend on the processing

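Of 76 called genes named, 39 kept direction and call under all 30 settings, 37 lost the call under at least 1, and none reversed. Among genes not called, Rora (main -0.12) ranged from -0.19 to 0.01 and Bhlhe40 (main 0.37) from -0.03 to 0.96 over the fits without 1 replicate number, and Bhlhe40 was at -0.42 in DRF ZT24 alone. The end-of-fast count of 1572 was 918 with only the 12 libraries fitted, 965 with DRF ZT0 alone, 2444 without DRF ZT0 replicate 4 and DRF ZT8 replicate 1, 862 to 1878 without 1 library and 622 to 1073 without 1 replicate number. With only the 12 libraries, DRF ZT0 against NRF ZT12 gave 456 calls, DRF ZT24 against NRF ZT12 gave 675, and DRF ZT24 against DRF ZT0 gave 0. The last count of 18 was 4 on the deposited scale, 11 with voom weights and 4 without DRF ZT0 replicate 4 and DRF ZT8 replicate 1. Without these 2 libraries DRF ZT0 against NRF ZT12 gave 1226 calls, DRF ZT24 against NRF ZT12 2010, lights on 5972, lights off 5185, the DRF swing 4410, the NRF swing 5285 and the difference of the swings 1334. Leaving out 1 library, then 1 replicate number, gave 4 to 129 and 2 to 56 for DRF ZT24 against DRF ZT0, 561 to 1178 and 317 to 798 for DRF ZT0 against NRF ZT12, 796 to 1568 and 497 to 1060 for DRF ZT24 against NRF ZT12, 4485 to 5371 and 3097 to 4978 at lights on, 3277 to 4629 and 2398 to 3870 at lights off, 3298 to 3852 and 2162 to 2856 for the DRF swing, 3397 to 4803 and 2619 to 4557 for the NRF swing, and 679 to 1009 and 436 to 979 for the difference of the swings. The cause of these shifts was not tested. The fits without 1 library were chosen after seeing the data. With the replicate number as a block the count was 1700. What mice of the same replicate number share is not in the labels used here. Deviations of the 12 same-number pairs correlated at -0.179 to 0.266 (median -0.0321), and 2 pairs were above 0.1. The median of the 36 other pairs was 0.015.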
